A study of Mus musculus with 18 samples.

Results

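Epididymal fat of mice resistant to a high-fat diet (HR) was compared with that of mice on a normal diet (ND), gene by gene, in 6 of the study's 18 RNA sequencing libraries, 3 from each group. The genes compared were the 14430 of 23474 with 1 FPKM or more in no fewer than 3 of the 9 epididymal fat libraries. FPKM, fragments per kilobase of transcript scaled to the mapped total, is a level per length. HR mice had been fed a high-fat diet and are called resistant to it by the labels. ND mice had been fed a normal diet. A further group on the high-fat diet, called prone to it (HP, 3 libraries), shared the statistical fit and is shown beside them. All were male C57BL/6J mice (a strain field of the labels reads C56BL/6J), housed singly, which began their diets at 5 weeks of age, stayed on them for 12 weeks and were 17 weeks old at sampling. The labels speak of 10 mice in each group, divided at random, and do not say how resistance was judged, what the diets held or whether each library was 1 mouse. The p-values therefore measure the spread between these libraries, which may be technical in part. The study's stated interest was in expression tied to lipid and glucose metabolism, and liver of the same 3 groups was sequenced as well.

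White fat stores triglyceride in adipocytes, which also secrete hormones such as leptin and adiponectin. Its macrophages change in obesity. Resident macrophages of lean fat carry scavenger and lectin receptors, while a lipid-associated type, marked by the lipid receptor Trem2, gathers around dying adipocytes, takes up their lipid and breaks it down in lysosomes. Macrophages, dendritic cells and B cells also show antigen to T cells on MHC class II molecules. The epididymal pad of male mice is cut from beside the epididymis and testis. In bulk tissue, fewer cells of a type and less RNA per cell cannot be told apart.

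The adipocyte markers were present in every library, but HR 2 and ND 1 also held much RNA of the reproductive tract. Summed FPKM of 8 adipocyte markers were 26431, 5508 and 22270 in HR libraries 1, 2 and 3, against 6871, 34777 and 23379 in ND libraries 1, 2 and 3. Sums of 4 spermatid genes (Prm1, Prm2, Tnp1 and Tnp2, which package sperm DNA) were 7.47, 11231 and 13.98 in HR, against 92413, 128 and 2282 in ND. Libraries HR 2 and ND 1 were thus the lowest of their groups in adipocyte markers and the highest in spermatid genes. Sums of 7 genes of the epididymal epithelium were 6.05, 0.129 and 0.831 in HR, against 17281, 7.202 and 12.03 in ND, and 1275 in HP 2. Across genes, the median correlation of HR 2 with the other epididymal fat libraries was 0.425 and that of ND 1 was 0.328, against 0.81 to 0.935 for the other 7. ND 3 and the prone library HP 1, with 2282 and 1738 FPKM of spermatid genes, remained in both fits. In the 7-library fit described below, 18 tested genes of the spermatid and testis list had a median log2 difference (HR minus ND) of -3.93 with 0 called. Lists of smooth muscle (9 tested), red cell (5), skeletal muscle (2) and epididymal genes (1) gave 0 calls as well. FPKM carries no total count, so the absolute depth of the libraries is unknown.

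**Figure D1:**
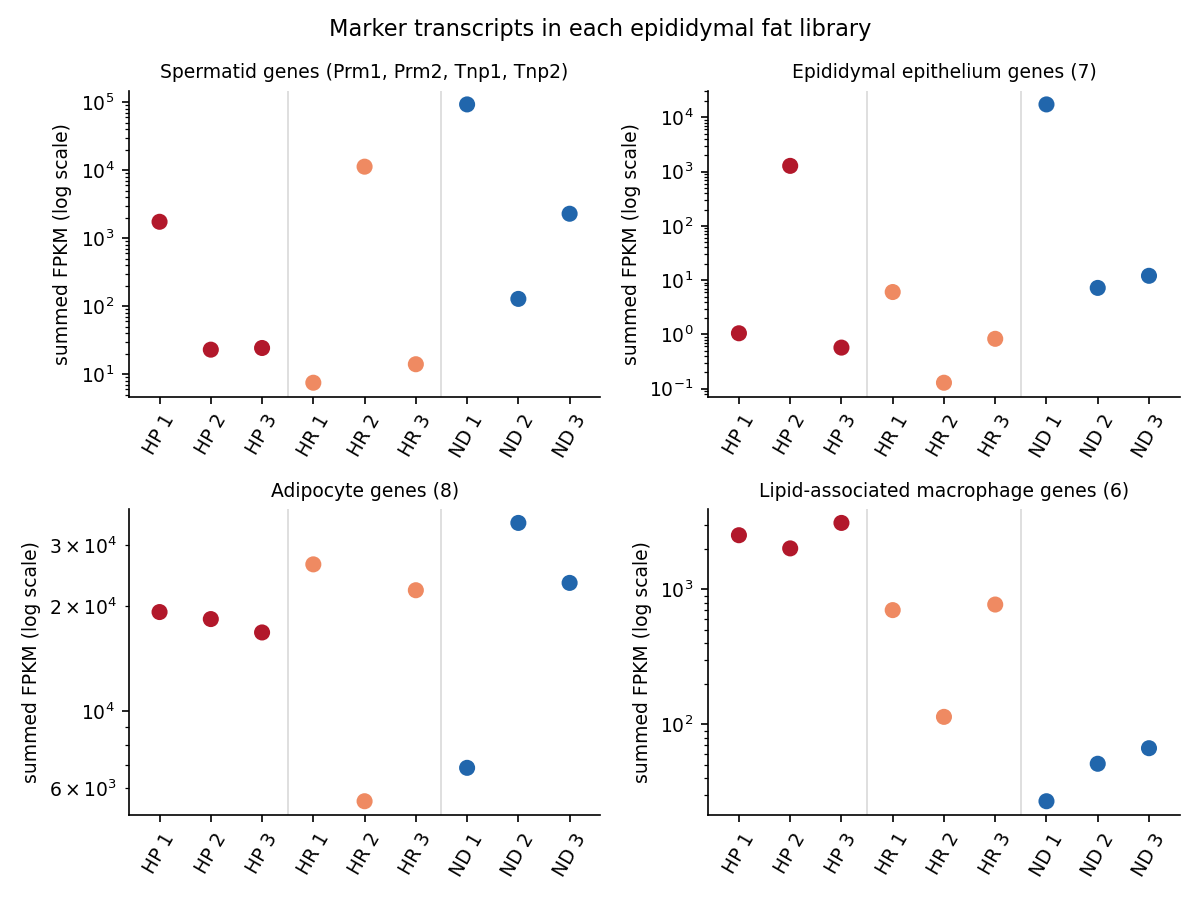
Summed FPKM, on log axes, of 4 marker lists in each of the 9 epididymal fat libraries, 1 point per library, with the HP group at the left, HR in the middle and ND at the right. HR 2 and ND 1 stand out by high spermatid and low adipocyte sums, and the lipid-associated macrophage sums of HR libraries all lie above those of ND libraries.

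With all 9 libraries, no gene passed the threshold. At a limma adjusted p below 0.05 the fit called 0 of 14430 genes (0%), and 392 had an unadjusted p under 0.05, of which 341 were higher and 51 lower in HR. Down-weighting divergent libraries gave 307 calls (297 higher, 10 lower), and leaving out HR 2 alone gave 27. The genes with the smallest p among those higher in HR were Gpnmb, Saa3, F7, Il1rn, Nckap1l and Rgs1. Those lower in HR were Crygn, Nat8f1, Med18, Slpi, Ptp4a1 and Smim20. Gpnmb, a glycoprotein of lipid-laden macrophages, had 246, 36.5 and 293 FPKM in the HR libraries, against 2.32, 3.75 and 6.01 FPKM in the ND libraries, in the order 1, 2 and 3 that all values below follow. The ranges did not overlap, and the log2 difference over all 3 libraries a group was 4.86 ± 0.74 (SE, n = 3 against 3) with a limma adjusted p of 0.777. Crygn, a lens crystallin gene, was listed at 0 in all 3 HR and all 3 HP libraries and had 14.5, 6.89 and 5.52 FPKM in ND. It was tested only because the 3 ND libraries reached 1 FPKM, so its difference is a description.

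Without HR 2 and ND 1, 540 of 13054 genes differed between HR and ND (4.14%), nearly all of them higher in HR. The count was 502 higher (3.85%) and 38 lower (0.291%), beside a median log2 difference of 0.018 over all genes tested. This fit set 2 HR libraries against 2 ND libraries, took its estimate of the spread from 3 HP libraries too, and gave the HR minus ND tests below, at n = 2 against 2, unless another fit is named. A log2 difference is HR minus ND of log2(FPKM + 1), with its standard error (SE). Of 269 genes picked by list, size of change or name, 112 were called. Leaving out 1 of the 7 libraries ended 3 (ND 3) to 75 (HR 3) of those calls, and without HR 3 a single HR library remained. Over all genes the count was 1307 without ND 3 (1146 higher, 161 lower), 706 without ND 2 (468 higher, 238 lower), 305, 274 and 232 without HP 2, HP 3 or HR 1, and 86 without HR 3, and fitting only the 4 HR and ND libraries gave 23 calls, all higher.

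**Figure D2:**
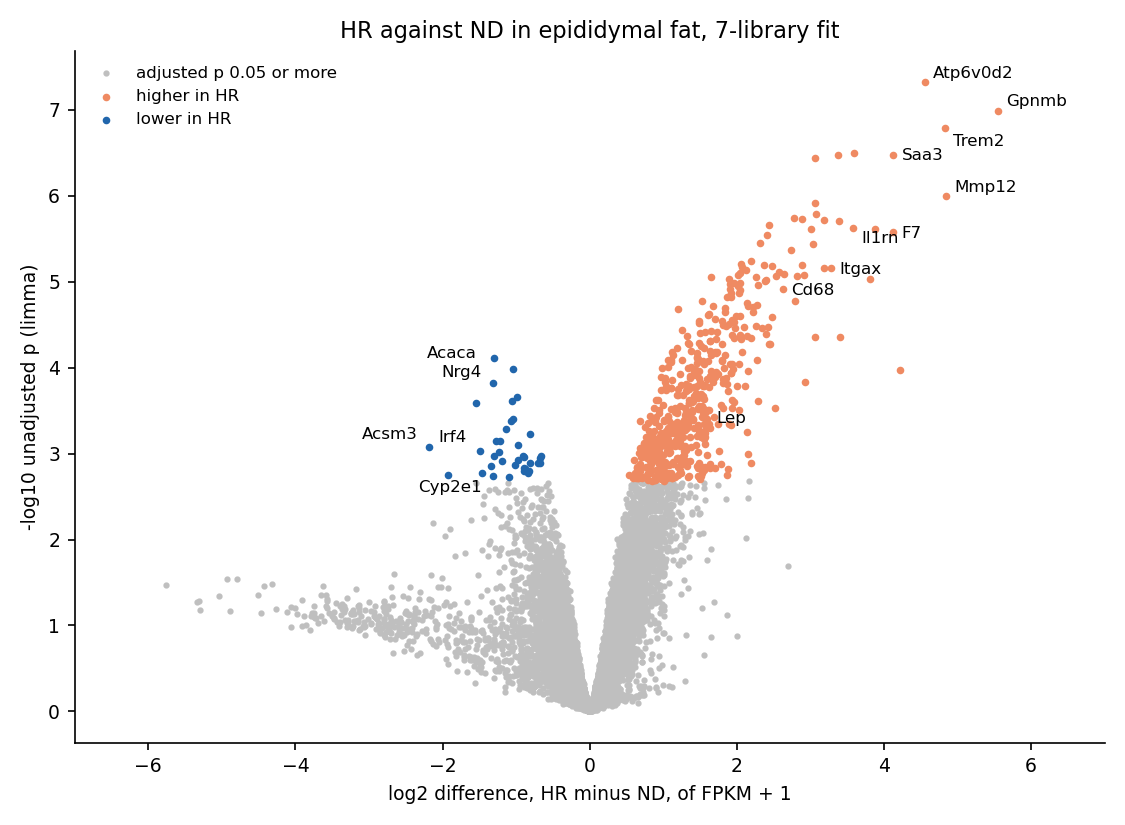
Each point is 1 of 13054 genes in the 7-library fit, with the log2 difference (HR minus ND, log2 of FPKM + 1) on the horizontal axis and minus log10 of the unadjusted limma p on the vertical axis. Orange genes were higher and blue genes lower in HR at an adjusted p under 0.05, 502 and 38 in number. The labelled macrophage genes are among the largest rises called. Genes of the spermatid and testis list, none of them called, reached -5.33.

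Lipid-associated macrophage genes were higher in HR fat, and their list had the highest median of the 44 compared in the 7-library fit. Of 17 members, 11 were higher and 0 lower, with a median log2 difference of 1.99. The 11 were Trem2, Gpnmb, Mmp12, Lgals3, Fabp5, Atp6v0d2, Ctsd, Lipa, Tyrobp, Plin2 and Capg. The 6 not called were Cd9, Spp1, Lpl, Cd63, Apoe and Cd36. The differences ran from -0.205 to 5.55, and 15 of the 17 were above 0. Some genes stand in more than 1 list, such as Ctsd here and among the lysosomal genes. Trem2, the lipid receptor that names these cells, had 98.3, 12.1 and 95.5 FPKM in the HR libraries, against 7.58, 2.301 and 2.61 FPKM in the ND libraries. Every HR value lay above every ND value, and the log2 difference was 4.83 ± 0.22, limma adjusted p = 0.000674. Gpnmb rose with it (5.55 ± 0.23, limma adjusted p = 0.000665). Mmp12, the macrophage elastase, had 232, 41.5 and 259.9 FPKM in the HR libraries, against 0.0959, 9.699 and 5.95 FPKM in the ND libraries, with no overlap either (4.84 ± 0.29, limma adjusted p = 0.00165). Atp6v0d2, a subunit of the proton pump that acidifies lysosomes, had 46.4, 6.29 and 59.9 FPKM in the HR libraries, against 2.04, 1.42 and 1.16 FPKM in the ND libraries (4.56 ± 0.17, limma adjusted p = 0.000622). Itgax, the integrin CD11c and no member of the list, had 31.1, 4.38 and 39.5 FPKM in the HR libraries, against 0.159, 2.23 and 3.28 FPKM in the ND libraries (3.28 ± 0.26, limma adjusted p = 0.00281), and Lgals3, a galectin, rose by 2.91 (limma adjusted p = 0.00281). These 6 genes kept their calls when any 1 library was left out. Lipa, which frees cholesterol and fatty acids from lipids taken up into the lysosome, had 115, 24.7 and 162 FPKM in the HR libraries, against 1.82, 36.4 and 31.2 FPKM in the ND libraries (1.99 ± 0.20, limma adjusted p = 0.00457). The list's count was 8 to 13 with any 1 library left out, 7 when HR and ND were fitted alone, and its median over all 9 libraries was 1.56.

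Macrophage genes at large followed in the same direction. Of 22 members, 18 were higher and 0 lower in HR, with a median log2 difference of 1.51. The differences ran from -1.62 to 2.89, and 21 of the 22 were above 0. Cd68, a lysosomal membrane protein used as a macrophage marker, had 129, 27.6 and 171 FPKM in the HR libraries, against 7.19, 27.04 and 19.9 FPKM in the ND libraries. HR 1 and HR 3 lay above all ND libraries, HR 2 lay just above ND 2, and the log2 difference was 2.63 ± 0.23, limma adjusted p = 0.00302. Adgre1, the F4/80 antigen, had 63.9, 23.4 and 102 FPKM in the HR libraries, against 0.651, 16.02 and 14.3 FPKM in the ND libraries (2.34 ± 0.24, limma adjusted p = 0.00522). Ctss, a protease that trims the MHC class II chaperone, rose by 2.89 (limma adjusted p = 0.00178). Mpeg1, a pore-forming protein, rose by 2.73 (adjusted p = 0.0024), and Spi1, the transcription factor PU.1, by 2.12 (adjusted p = 0.00281). The count of 18 fell to 10 without HR 1, to 6 without HR 3 and to 1 when HR and ND were fitted alone.

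Genes of resident macrophages gave 1 call. Of 13 tested members of 14, 1 was higher and 0 lower, and the median log2 difference was -0.072, or 0.014 after scaling each library to 1 common sum. The gene called was Clec10a, a lectin, at 0.97 ± 0.16, limma adjusted p = 0.0238, a call that ended without HP 2, HP 3, HR 1 or HR 3 (adjusted p 0.0617 to 0.179). Mrc1, the mannose receptor CD206, had 27.5, 13.5 and 39.5 FPKM in the HR libraries, against 1.83, 24.4 and 19.5 FPKM in the ND libraries (0.57 ± 0.21, limma adjusted p = 0.23). Folr2, a folate receptor, had a difference of 0.30 (95% interval -0.15 to 0.74), and Pf4, a chemokine, of -0.072 (95% interval -0.58 to 0.44). Retnla, which alternatively activated macrophages secrete, had 818, 162 and 693 FPKM in HR, against 272, 1218 and 672 FPKM in ND (-0.27 ± 0.41, limma adjusted p = 0.785). The HR and ND values of Retnla overlapped. Stab1, a scavenger receptor, was called as well when ND 3 was left out (adjusted p 0.0158).

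Lysosomal genes rose in part. Of 35 members, 14 were higher and 0 lower in HR, the median log2 difference was 0.64, and 33 of 35 differences were above 0. Ctsk, a cathepsin, had 72.2, 11.7 and 68.6 FPKM in the HR libraries, against 1.12, 13.6 and 11.9 FPKM in the ND libraries (2.38 ± 0.20, limma adjusted p = 0.00283). Ctsd, the chief aspartic protease of lysosomes, had 1960, 356 and 2168 FPKM in the HR libraries, against 378, 826 and 753 FPKM in the ND libraries (1.38 ± 0.20, limma adjusted p = 0.0146). In both genes HR 1 and HR 3 lay above every ND library, while the HR 2 value of Ctsd lay below every ND library. Gusb, a glucuronidase, rose by 1.64 (adjusted p = 0.00598), and Psap, the precursor of the saposins that present lipids to lysosomal enzymes, by 1.39 (adjusted p = 0.017). Without HR 3 the calls of Gusb, Psap and Ctsd ended (adjusted p 0.0618 to 0.143), as did those of Psap and Ctsd without HR 1 (adjusted p 0.0686 to 0.0709). The list's count was 5 without HR 1, 2 without HR 3 and 1 when HR and ND were fitted alone.

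Promoters are shown for 4 genes that rose together, 1 or more for each of these lists, as RefSeq gives them for GRCm38.p6, from 250 bases before to 50 after the transcript start and 5′ to 3′ on the gene's strand. Capitals mark matches to the AP-1 site (TGACTCA or, on the other strand, TGAGTCA), to the PU.1 core (GAGGAA or TTCCTC) and to the palindromic E-box of the lysosomal CLEAR element (TCACGTGA).
Gpnmb (chr6:49036268-49036567, plus strand): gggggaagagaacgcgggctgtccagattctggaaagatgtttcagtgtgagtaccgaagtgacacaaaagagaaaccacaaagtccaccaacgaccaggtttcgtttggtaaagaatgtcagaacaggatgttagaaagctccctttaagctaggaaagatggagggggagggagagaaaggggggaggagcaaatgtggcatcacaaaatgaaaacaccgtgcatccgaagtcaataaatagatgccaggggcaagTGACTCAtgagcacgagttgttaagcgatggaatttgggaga
Trem2 (chr17:48346151-48346450, plus strand): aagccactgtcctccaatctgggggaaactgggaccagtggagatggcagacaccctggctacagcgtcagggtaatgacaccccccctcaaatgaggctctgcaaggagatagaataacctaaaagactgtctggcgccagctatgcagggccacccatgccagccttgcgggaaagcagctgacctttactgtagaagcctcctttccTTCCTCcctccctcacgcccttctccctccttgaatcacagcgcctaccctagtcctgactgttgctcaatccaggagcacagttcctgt
Cd68 (chr11:69666121-69666420, minus strand): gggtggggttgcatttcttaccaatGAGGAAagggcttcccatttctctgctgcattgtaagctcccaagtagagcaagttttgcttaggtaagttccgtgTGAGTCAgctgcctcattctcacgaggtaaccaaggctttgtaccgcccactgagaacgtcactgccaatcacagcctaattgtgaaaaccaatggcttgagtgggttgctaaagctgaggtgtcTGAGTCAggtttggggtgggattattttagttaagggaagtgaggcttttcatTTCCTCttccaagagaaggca
Ctsd (chr7:142387778-142388077, minus strand): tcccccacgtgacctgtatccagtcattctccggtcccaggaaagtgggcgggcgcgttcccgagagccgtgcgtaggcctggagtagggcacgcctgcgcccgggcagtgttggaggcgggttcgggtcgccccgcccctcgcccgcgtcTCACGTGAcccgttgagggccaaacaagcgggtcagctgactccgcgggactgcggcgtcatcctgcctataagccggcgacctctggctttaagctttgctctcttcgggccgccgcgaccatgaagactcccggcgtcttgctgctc
The Gpnmb window held 1 AP-1 match, Trem2 held 1 PU.1 core, Cd68 held 2 of each and Ctsd held 1 E-box. Among all 27025 promoters of the table, 5.17% held the AP-1 site, 28.3% the PU.1 core and 1.01% the E-box. The E-box stood in 4 of 26 lysosomal promoters in the table (15.4%), in 1 of 13 lipid-associated macrophage promoters (7.69%) and in 0 of 15 macrophage promoters. The PU.1 core stood in 11 of the 15 (73.3%), in 6 of the 13 (46.2%) and in 10 of the 26 (38.5%). The AP-1 site stood in 1 of the 15 (6.67%), in 1 of the 13 (7.69%) and in 3 of the 26 (11.5%). A match describes the letters only and shows neither binding nor cause. The motifs do not overlap one another in these windows.

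All members of the MHC class II list were higher in HR. The list has 8 genes, and 8 were called, with a median log2 difference of 1.24 and 0 lower. H2-Ab1, a beta chain that presents peptides, had 435, 117 and 430.4 FPKM in the HR libraries, against 69.01, 183 and 185 FPKM in the ND libraries (1.23 ± 0.18, limma adjusted p = 0.0157). HR 1 and HR 3 lay above every ND library, while HR 2 lay between ND 1 and ND 2. Cd74, the invariant chain that guards the peptide groove, had 999, 269 and 1102 FPKM in the HR libraries, against 149, 565 and 472 FPKM in the ND libraries (1.02 ± 0.19, limma adjusted p = 0.0375). Ciita, the factor that switches these genes on, had 6.52, 1.62 and 10.2 FPKM in the HR libraries, against 0.15, 2.41 and 3.23 FPKM in the ND libraries (1.27 ± 0.23, limma adjusted p = 0.0342). H2-DMb1, part of the peptide loader and close in sequence to H2-DMb2, so that reads may be split between them, rose by 1.65 (adjusted p = 0.00281). Ctss, counted with the macrophage genes too, is the member with the largest rise. The count was 5 without ND 3, 3 without HP 2, HP 3 or HR 1, 2 without HR 3 and 1 when HR and ND were fitted alone. Calls that ended included H2-Ab1 without HR 1 or HR 3 (adjusted p 0.0896 to 0.122), and Cd74 and Ciita without 5 of the 7 libraries (adjusted p 0.0502 to 0.232).

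A minority of chemokine and cytokine genes rose, on the ligand and on the receptor side, with monocyte chemokines among the ligands. Of 24 tested ligands of 30, 5 were higher and 0 lower (median 0.67). Il1rn, the secreted antagonist of the interleukin-1 receptor, had 13.98, 3.81 and 17.7 FPKM in the HR libraries, against 0, 0.7 and 0.154 FPKM in the ND libraries (3.58 ± 0.24, limma adjusted p = 0.00178). Ccl9, a monocyte chemokine of mice, had 95.1, 19.1 and 112 FPKM in the HR libraries, against 1.502, 25.7 and 22.6 FPKM in the ND libraries (2.05 ± 0.16, limma adjusted p = 0.00281). Ccl2, the main ligand of Ccr2, had 16.7, 2.72 and 14.3 FPKM in the HR libraries, against 0.156, 4.04 and 4.08 FPKM in the ND libraries (1.70 ± 0.20, limma adjusted p = 0.00714). HR and ND values of Il1rn did not overlap, while for Ccl9 and Ccl2 HR 2 lay below ND 2. Ccl8 (1.47, limma adjusted p = 0.022) and Tgfb1 (1.38, limma adjusted p = 0.00884) completed the 5. Ccl2 and Tgfb1 lost their calls without HR 1 or HR 3 (adjusted p 0.0521 to 0.0881) and Ccl8 without HP 2 or HR 3 (adjusted p 0.0509 to 0.143), and Ccl6, a monocyte chemokine, was called without ND 2 (adjusted p 0.0242). The number of ligands called was 8 without ND 2, 6 higher and 1 lower without ND 3, 3 without HR 1 and 2 without HR 3. Tnf had 0.856, 0.511 and 0.774 FPKM in HR, against 0, 0.207 and 0.167 FPKM in ND, and its difference of 0.61 did not pass (adjusted p = 0.221).

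Of 21 tested receptors of 25, 6 were higher and 0 lower (median 0.50). Csf2ra, the alpha chain of the GM-CSF receptor, rose by 2.03 (adjusted p = 0.0164). Tnfrsf1b, a receptor of tumour necrosis factor, Il10ra, Csf2rb and Ccr1 rose as well, Ccr1 by 0.96 at the low end. Without HR 3 the calls of these 5 genes ended (adjusted p 0.0878 to 0.288), and without HR 1 those of Csf2ra, Csf2rb and Ccr1 did (adjusted p 0.0807 to 0.17). Il10ra also lost its call without HP 2 or HP 3, and Ccr1 without ND 3 or any HP library (adjusted p 0.0516 to 0.288). The number of receptors called was 3 without HR 1.

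The lymphocyte and granulocyte lists gave 1 call each, among small numbers of tested genes. The shares called were 12.5% (T and NK cell), 25.0% (B cell) and 12.5% (neutrophil and mast cell), against 4.14% of all genes. Of 8 tested T and NK cell genes of 18, 1 was higher: Il7r, the interleukin-7 receptor, with 13.2, 1.66 and 17.4 FPKM in the HR libraries, against 0.0515, 0.632 and 0.926 FPKM in the ND libraries (3.19 ± 0.21, limma adjusted p = 0.00178). The T cell receptor chain Trac had 3.04, 0.623 and 2.96 FPKM in HR, against 0, 2.94 and 2.19 FPKM in ND (0.17, limma adjusted p = 0.818). Of 4 tested B cell genes of 8, Cd22, an inhibitory B cell receptor, was higher (1.23, limma adjusted p = 0.0291). Ighm, the IgM heavy chain, had 223, 93.4 and 359.5 FPKM in the HR libraries, against 25.2, 170.2 and 92.7 FPKM in the ND libraries, with HR 2 close to ND 3 and a difference that did not pass (1.17 ± 0.32, limma adjusted p = 0.113), except without ND 2 (adjusted p 0.0299). Of 8 tested neutrophil and mast cell genes of 14, S100a8, a calcium-binding protein of neutrophils and monocytes, was the 1 called, with 27.5, 6.98 and 47.3 FPKM in HR, against 0, 7.12 and 9.56 FPKM in ND (limma adjusted p = 0.0112). The mast cell proteases Cma1 and Mcpt4 had differences of -0.22 (95% interval -0.97 to 0.54) and -0.61 (-1.31 to 0.10). Of 20 interferon response genes, Oas1a, an RNA sensor, was the 1 called (0.97, limma adjusted p = 0.0359), and the list's median was 0.20. That share, 5.0%, was near the 4.14% of all genes. The Cd22 call ended without any HP or HR library (adjusted p 0.0632 to 0.207), that of Oas1a without 6 of the 7 libraries (adjusted p 0.0585 to 0.247) and that of S100a8 without HR 3 (adjusted p 0.0604).

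Complement genes rose on the receptor side and in part among the soluble factors. Of 21 members, 10 were higher and 0 lower (median 0.79). The differences ran from -1.25 to 2.89, and 14 of the 21 were above 0. The lowest was that of Cfd, adipsin, which did not pass and whose FPKM values are given with the adipokines. Itgb2, the shared beta chain of the complement receptor integrins, had 81.98, 16.5 and 115 FPKM in the HR libraries, against 0.912, 11.97 and 12.5 FPKM in the ND libraries (2.89 ± 0.23, limma adjusted p = 0.00281). C3ar1 and C5ar1, receptors of the C3a and C5a peptides, rose by 2.27 (adjusted p = 0.00794) and 1.59 (adjusted p = 0.0194). C1qb, part of the C1q recognition unit, had 179.8, 56.6 and 187 FPKM in HR, against 54.7, 72.1 and 60.1 FPKM in ND (1.46 ± 0.19, limma adjusted p = 0.0112). Cfb, the catalytic factor of the alternative pathway, had 273, 50.1 and 342 FPKM in HR, against 7.57, 122 and 118 FPKM in ND (1.34 ± 0.15, limma adjusted p = 0.00626). HR 1 and HR 3 lay above all ND libraries in each of these genes. The count was 6 higher and 1 lower without HR 1, 11 higher and 1 lower without ND 3, and 1 higher without HR 3. Calls of C3ar1, C5ar1, C1qb and Cfb ended without HR 3 (adjusted p 0.0517 to 0.159), and those of C5ar1 and C1qb without HR 1 (adjusted p 0.0618 to 0.0659).

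Acute phase and clotting genes gave some of the largest single changes. Of 11 tested acute phase genes of 16, 3 were higher. Saa3, a serum amyloid A made by fat and macrophages, had 66.5, 18.6 and 92.9 FPKM in the HR libraries, against 2.73, 4.25 and 2.96 FPKM in the ND libraries, with no overlap (4.13 ± 0.21, limma adjusted p = 0.000674). Hp, haptoglobin, which binds free haemoglobin, had 3847, 689.7 and 4881 FPKM in the HR libraries, against 219, 1181 and 1159 FPKM in the ND libraries (1.89 ± 0.19, limma adjusted p = 0.00501). Serpina3n, a protease inhibitor, rose by 0.82 (adjusted p = 0.0397). Of 17 tested coagulation and fibrinolysis genes of 19, 4 were higher. F7 (factor VII), which starts clotting with tissue factor, had 20.9, 4.52 and 22.04 FPKM in the HR libraries, against 0.403, 0.285 and 0.297 FPKM in the ND libraries (4.12 ± 0.28, limma adjusted p = 0.00182). F10 (factor X), its substrate, had 5.32, 1.61 and 5.32 FPKM in the HR libraries, against 0.368, 0.206 and 0.39 FPKM in the ND libraries (2.29 ± 0.20, limma adjusted p = 0.00293). F3, tissue factor itself, had 29.2, 6.103 and 23.4 FPKM in HR, against 1.19, 28.5 and 25.7 FPKM in ND, a difference of -0.048 (95% interval -0.40 to 0.30). Plau, the urokinase protease, and its receptor Plaur rose by 0.91 (adjusted p = 0.0279) and 1.73 (adjusted p = 0.00714). Saa3, Hp, F7 and F10 were called whichever 1 library was left out, while Plaur lost its call without HR 1 or HR 3 (adjusted p 0.0527 to 0.0635), Plau without any HP or HR library (adjusted p 0.052 to 0.197) and Serpina3n without 6 of the 7 libraries (adjusted p 0.055 to 0.217).

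**Figure D3:**
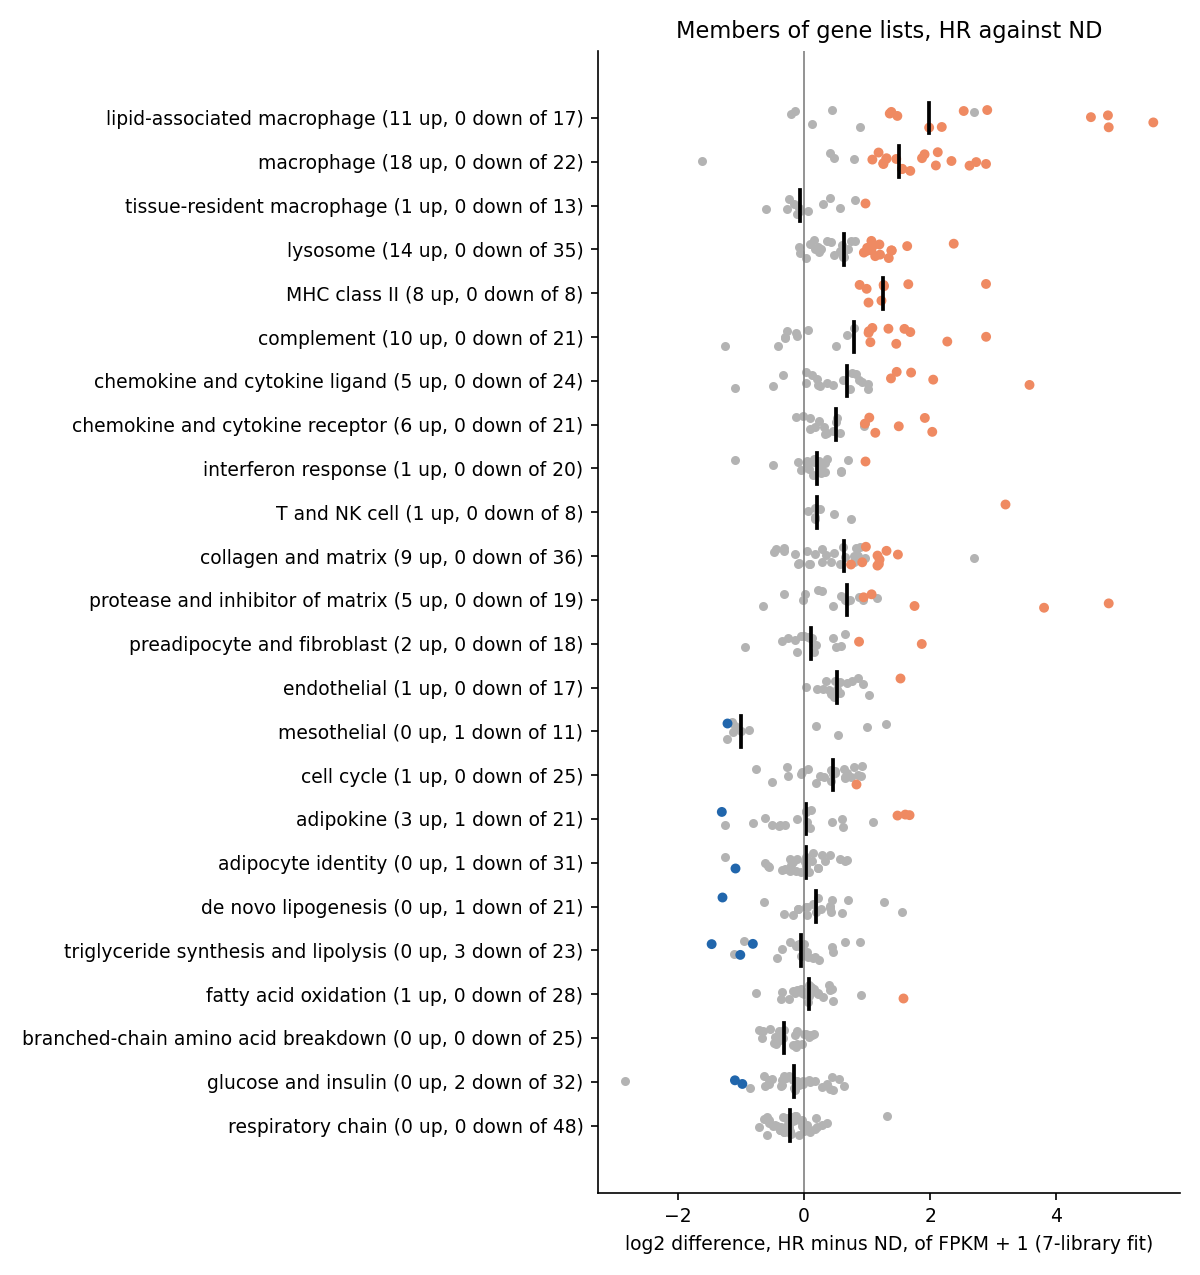
Each point is a gene of 1 of 24 lists, placed by its log2 difference (HR minus ND, 7-library fit), with orange for genes higher and blue for genes lower in HR at an adjusted p under 0.05, and a black bar at the median of the list. The bars of the lipid-associated macrophage, macrophage, MHC class II and complement lists lie right of 0, at 1.99, 1.51, 1.24 and 0.79, and that of tissue-resident macrophages lies at -0.072. Those of the adipocyte and metabolic lists lie between -0.31 and 0.19.

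Matrix genes rose in part, and their count varied widely with the libraries used. Of 36 members, 9 were higher and 0 lower, with a median log2 difference of 0.63 and 29 of 36 above 0. Col6a1, a chain of collagen VI, which surrounds adipocytes, had 217, 53.1 and 288 FPKM in the HR libraries, against 18.2, 108 and 114 FPKM in the ND libraries (1.16 ± 0.17, limma adjusted p = 0.0161), and its partner chain Col6a2 rose by 1.31 (adjusted p = 0.017). Another chain of that collagen, Col6a3, had 35.7, 11.9 and 46.2 FPKM in HR, against 2.65, 31.03 and 22.2 FPKM in ND (0.61 ± 0.21, limma adjusted p = 0.189). Col1a1, a chain of fibrillar collagen I, had 113, 25.6 and 144 FPKM in HR, against 8.303, 34.8 and 57.3 FPKM in ND (1.49 ± 0.28, limma adjusted p = 0.0384), and Col4a2, of the basement membrane, rose by 1.19 (adjusted p = 0.0171). For all 5 of these collagens HR 1 and HR 3 lay above every ND library. The count was 4 without ND 2 or HP 1, 16 without ND 3, 2 without HP 2 or HP 3, 3 without HR 1 and 0 without HR 3. Col6a1 and Col6a2 lost their calls without HR 3 alone (adjusted p 0.0948 to 0.103), Col4a2 without HP 2, HP 3, HR 1 or HR 3 and Col1a1 without 6 of the 7 libraries (adjusted p 0.0504 to 0.243).

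Matrix proteases and their inhibitors gave 5 higher and 0 lower of 19 tested (median 0.68): Mmp12, Adam8, Timp1, Mmp19 and Mmp2. Adam8, a membrane protease of myeloid cells, had 51.2, 10.8 and 69.7 FPKM in the HR libraries, against 0.582, 2.14 and 4.98 FPKM in the ND libraries (3.81 ± 0.32, limma adjusted p = 0.00282). Timp1, an inhibitor of matrix metalloproteases, had 6.41, 1.88 and 7.52 FPKM in HR, against 5.71, 1.48 and 1.25 FPKM in ND (1.75 ± 0.31, limma adjusted p = 0.0315), and ND 1 lay within the HR range. Without 1 library the count was 2 (ND 2, HP 3 or HR 3), 3 (HP 1, HP 2 or HR 1) or 9 (ND 3). The calls lost were those of Timp1 (adjusted p 0.0503 to 0.215), Mmp19 (adjusted p 0.0512 to 0.25) and Mmp2 (adjusted p 0.0665 to 0.267).

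Of 18 tested preadipocyte and fibroblast genes, 2 were higher and 0 lower (median 0.11): Ccn5, a secreted factor of fat precursors (1.87, limma adjusted p = 0.0455), and Pdgfrb, a growth factor receptor of mural and precursor cells (0.87, limma adjusted p = 0.0229). Both calls depended on single libraries, Ccn5 on 6 of the 7 and Pdgfrb on the HP and HR libraries (adjusted p 0.0526 to 0.19 without them). Pi16, a marker of early fat precursors, had a difference of -0.0057 (95% interval -0.49 to 0.48). Of 17 endothelial genes 1 was called, or 6 without ND 3. It was Aplnr, the apelin receptor, with 19.4, 5.91 and 22.1 FPKM in the HR libraries, against 0.746, 6.08 and 7.06 FPKM in the ND libraries (1.52 ± 0.14, limma adjusted p = 0.00375), although all 17 differences were above 0 (median 0.52). Cdh5, the cadherin of endothelial junctions, had 112, 28.6 and 108 FPKM in HR, against 2.93, 65.7 and 83.3 FPKM in ND (0.57 ± 0.14, limma adjusted p = 0.0906). Angpt2, which loosens vessel walls, and Vegfd, a lymphatic growth factor, were the 2 of 13 angiogenic factors called, at 1.08 and 0.82. Both lost their calls without HP 2, HP 3, HR 1 or HR 3, and Vegfd also without HP 1 (adjusted p 0.0593 to 0.239). Mesothelial genes had a median of -1.01, with 0 higher and 1 lower of 11 tested, Lrrn4, an adhesion protein (-1.23, limma adjusted p = 0.0321). The Lrrn4 call ended without any HP library (limma adjusted p 0.0612 to 0.088) and without HR 3. Without ND 2, ND 3 or HR 1 the gene did not pass the filter on low values and was not tested. Keratins of the mesothelial list varied within groups: Krt8 had 34.4, 5.22 and 10.6 FPKM in HR, against 73.1, 0.534 and 43.5 FPKM in ND. The shares called were 11.1% (preadipocyte and fibroblast), 5.88% (endothelial), 15.4% (angiogenic factor) and 9.09% (mesothelial), against 4.14% of all genes.

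Genes that define the adipocyte were called at a share near that of all genes, 3.23% against 4.14%. Of 31 tested identity genes, 0 were higher and 1 was lower, Pck1, with a median log2 difference of 0.023. Adipoq (adiponectin) had 1860, 346 and 1556 FPKM in the HR libraries, against 202, 2781 and 1826 FPKM in the ND libraries (-0.41 ± 0.23, limma adjusted p = 0.411). Fabp4, the fatty acid carrier of adipocytes, had a difference of -0.18 (95% interval -1.02 to 0.66), Pparg, their master regulator, of 0.035 (-0.37 to 0.44), and the glucose carrier Slc2a4 of 0.28 (-0.42 to 0.97). Without ND 3 the list gave 3 lower calls, and its median was -0.031 after quantile normalization and -0.013 after median-ratio scaling. Adipoq, Fabp4, Pparg and Slc2a4 were low in HR 2 and ND 1, the libraries with few adipocyte transcripts.

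Among 21 tested adipokines, 3 were higher and 1 lower. Lep, the hormone leptin that reports fat stores to the brain, had 798, 142 and 1193 FPKM in the HR libraries, against 7.97, 323 and 317 FPKM in the ND libraries (1.61 ± 0.24, limma adjusted p = 0.0164). HR 1 and HR 3 were above all ND libraries and HR 2 was below ND 2 and ND 3. Sfrp5, a secreted inhibitor of Wnt signalling, had 370.3, 52.4 and 326 FPKM in the HR libraries, against 10.4, 103 and 114 FPKM in the ND libraries (1.67 ± 0.16, limma adjusted p = 0.00402). Metrnl, a secreted protein related to meteorin, rose by 1.48 (adjusted p = 0.00626). Nrg4, a growth factor that fat sends to the liver, fell: it had 35.4, 7.59 and 28.8 FPKM in the HR libraries, against 5.74, 89.3 and 72.7 FPKM in the ND libraries (-1.31 ± 0.17, limma adjusted p = 0.0109). Cfd, adipsin, had 2165, 323 and 1201 FPKM in HR, against 3048, 4074 and 3626 FPKM in ND, and its difference did not pass (-1.25 ± 0.30, limma adjusted p = 0.08). Of 13 tested genes of fat expansion, which share members with this list and with triglyceride synthesis, Sfrp5 and Lep were higher and Mogat1 lower, and of 8 tested renin-angiotensin genes Ctsd was the 1 called. Retn, resistin, had a difference of -0.81 (95% interval -1.61 to -0.016). Without HR 3, the calls of Lep, Metrnl and Nrg4 ended (adjusted p 0.0683 to 0.103), and without HR 1 Cfd was called lower (adjusted p 0.0487).

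**Figure D4:**
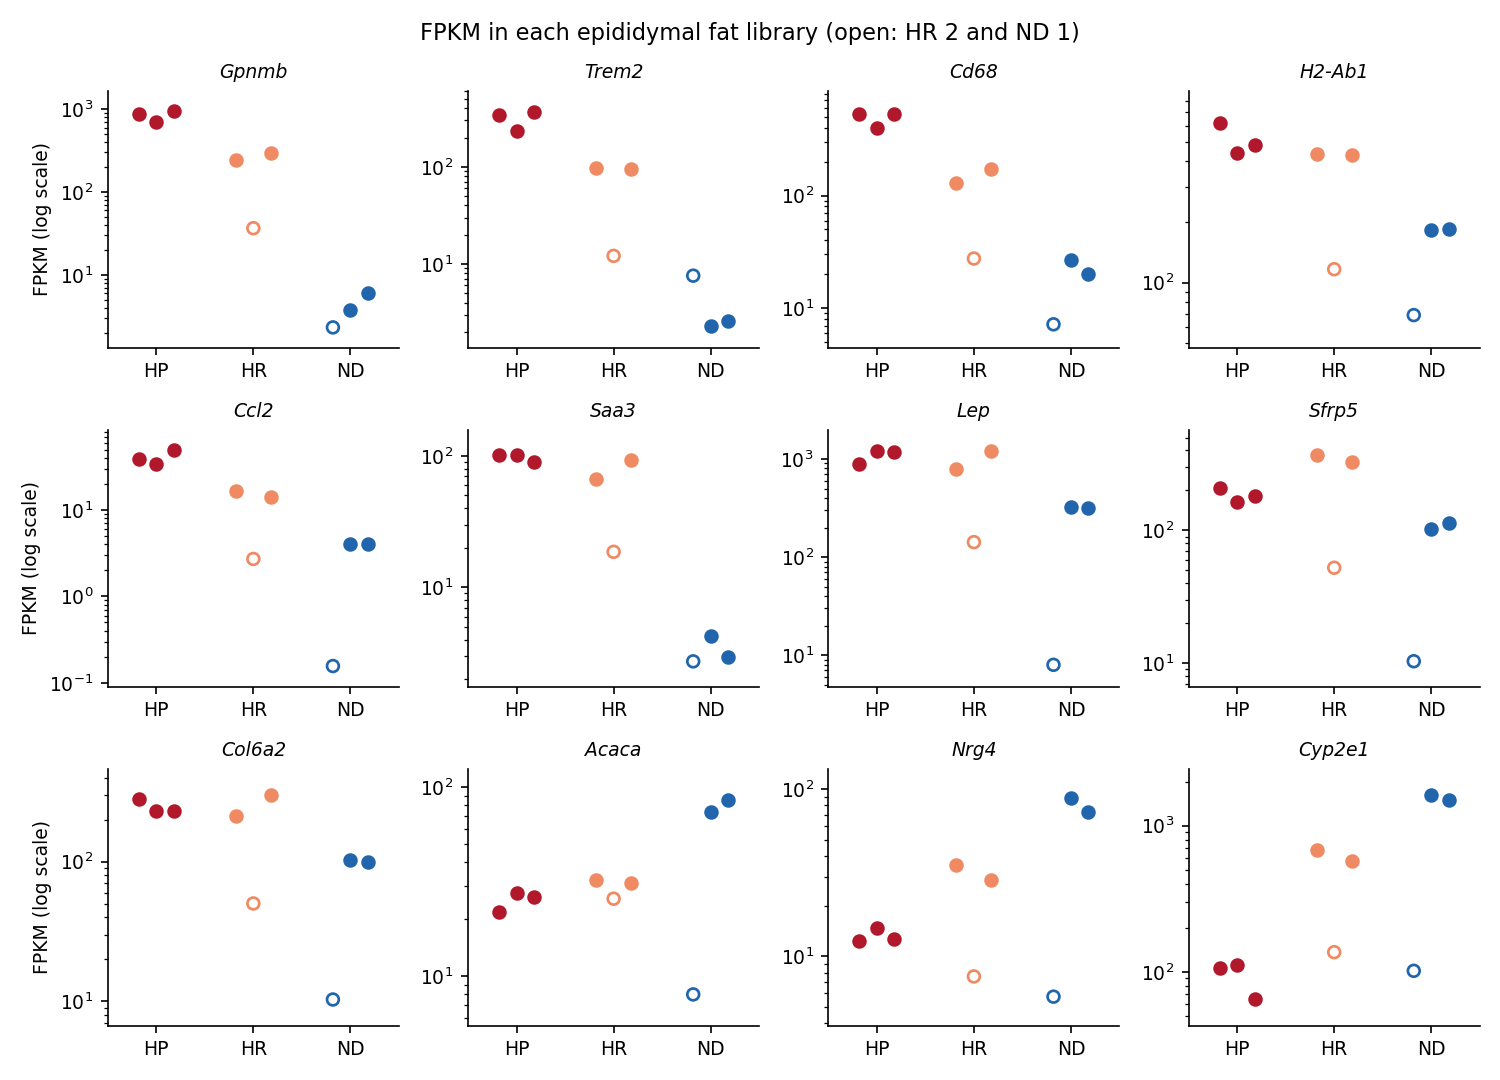
FPKM on log axes in each of 9 epididymal fat libraries for 12 genes, with HP at the left, HR in the middle and ND at the right of each panel, and open points for HR 2 and ND 1. Filled HR points lie above filled ND points for the macrophage, MHC, Ccl2, Saa3, Lep, Sfrp5 and Col6a2 panels and below them for Acaca, Nrg4 and Cyp2e1, while open points are low in most panels.

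Fat synthesis genes had 1 call, a share of 4.76% beside 4.14% over all genes. Of 21 lipogenic genes, 0 were higher and 1 lower: Acaca, acetyl-CoA carboxylase, the first committed step of fatty acid synthesis, with 32.4, 25.7 and 31.1 FPKM in the HR libraries, against 8.002, 74.2 and 85.8 FPKM in the ND libraries (-1.30 ± 0.15, limma adjusted p = 0.00781). HR 1 and HR 3 were below ND 2 and ND 3, while ND 1 was the lowest library of all. Fasn, the next enzyme, had 286, 89.9 and 354 FPKM in HR, against 34.5, 333 and 287 FPKM in ND (0.039 ± 0.17, limma adjusted p = 0.934), and Scd1, a desaturase, a difference of -0.093 (95% interval -0.68 to 0.49). Triglyceride synthesis and lipolysis gave 0 higher and 3 lower of 23 tested, or 5 lower without ND 3. The 3 were Mogat1, which acylates monoacylglycerol (-1.47, limma adjusted p = 0.0444), Pde3b, which carries insulin's brake on lipolysis (-1.01, limma adjusted p = 0.0396), and Gpat3, a glycerol phosphate acyltransferase (-0.81, limma adjusted p = 0.024). The lipases Pnpla2 and Lipe had differences of -0.13 (95% interval -0.51 to 0.25) and 0.041 (-0.29 to 0.37). Acaca lost its call without HR 3 (adjusted p 0.0805), Mogat1 without 5 of the 7 libraries, Gpat3 without any HP or HR library and Pde3b without 6 of the 7 (adjusted p 0.0507 to 0.193).

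In fatty acid uptake, Fabp5, a carrier shared by adipocytes and macrophages, was the 1 of 18 called, with 348, 83.98 and 357 FPKM in HR, against 24.8, 147 and 107 FPKM in ND (1.48 ± 0.18, limma adjusted p = 0.00907). In fatty acid oxidation it was Ucp2, a mitochondrial carrier also found in macrophages, of 28 (1.57, limma adjusted p = 0.0111). Those shares, 5.56% and 3.57%, were near the 4.14% of all genes, and that of the cholesterol list was 10.7%. The cholesterol list of 28 had 3 higher and 0 lower, or 6 higher without ND 3 and 1 without HR 3. The 3 were Lipa, Soat1, which esterifies cholesterol for storage (1.97, limma adjusted p = 0.0146), and Abcg1, which exports it (0.74, limma adjusted p = 0.033). The list had a median of 0.28, with 20 of the 28 differences above 0. Hmgcs1, an enzyme of sterol synthesis, had a difference of -0.22 (95% interval -0.50 to 0.054). Ucp2 and Soat1 lost their calls without HR 3 (adjusted p 0.0968 to 0.127), Fabp5 without HR 1 or HR 3 (adjusted p 0.0541 to 0.0878) and Abcg1 without 6 of the 7 libraries (adjusted p 0.0616 to 0.22).

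Glucose and insulin genes gave 0 higher and 2 lower of 32 (median -0.17), or 4 lower without ND 3. Pck1, which makes the glycerol backbone of triglyceride in fat, had 1186, 181 and 764 FPKM in the HR libraries, against 77.2, 2130 and 1954 FPKM in the ND libraries (-1.10 ± 0.22, limma adjusted p = 0.0471). Ppp1r3c, a glycogen-targeting subunit of protein phosphatase 1, had 7.92, 3.44 and 7.64 FPKM in HR, against 1.303, 16.4 and 16.3 FPKM in ND (-0.98 ± 0.14, limma adjusted p = 0.0132). In both genes HR 1 and HR 3 lay below ND 2 and ND 3, and ND 1 lay below all of them. Branched-chain amino acid breakdown gave 0 calls of 25 (median -0.31), or 7 lower without ND 3, and the respiratory chain 0 of 48 (median -0.22), or 3 lower without ND 3 and 1 higher without HR 3. Of 13 tested thermogenic genes of 20, Otop1, a proton channel, was the 1 called (1.85, limma adjusted p = 0.01). The shares called were 6.25% of glucose and insulin genes and 7.69% of thermogenic genes, against 4.14% of all genes. Ucp1, the uncoupler of brown and beige fat, had 32.5, 0.0846 and 0.041 FPKM in HR, against 4.43, 0.0395 and 0.0772 FPKM in ND, was under 1 FPKM in HR 2 and HR 3 and did not pass the filter of the 7-library fit. Pck1 lost its call without 5 of the 7 libraries and Ppp1r3c without HP 3, HR 1 or HR 3 (adjusted p 0.0528 to 0.185), and Otop1 without HR 1 or HR 3 (adjusted p 0.0695 to 0.0809).

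Stress and signalling lists held at most 3 calls each, some at a higher share than all genes. The shares called were 16.7% of immediate early and 21.4% of iron genes, against 4.14% of all genes. The antioxidant share was also above that of all genes. Those of the endoplasmic reticulum stress, cell cycle and clock lists were near or below it. Of 18 tested immediate early genes, 3 were higher: Atf3, a stress-induced transcription factor, had 36.8, 5.32 and 44.8 FPKM in the HR libraries, against 0.529, 4.55 and 3.47 FPKM in the ND libraries (3.06 ± 0.19, limma adjusted p = 0.00177), and Egr2 and Fos, transcription factors of activated cells, rose by 2.64 (adjusted p = 0.00281) and 1.90 (adjusted p = 0.00286). Egr2 was at 9.35 FPKM in ND 1, within the HR range. Of 23 antioxidant genes, Hmox1, which breaks down haem, rose (1.35, limma adjusted p = 0.0141), Sod3, the extracellular superoxide dismutase, rose (0.79, limma adjusted p = 0.0314) and Gsta3, a glutathione transferase, fell (-1.14, limma adjusted p = 0.0223). Of 14 tested iron genes 3 rose: Hmox1, Slc11a1, which moves iron out of the phagosome (2.19, limma adjusted p = 0.00576), and Steap3, which reduces iron in endosomes (1.31, limma adjusted p = 0.0306). Of 25 cell cycle genes, Ube2c, which tags cyclins for destruction, was the 1 called (0.82, limma adjusted p = 0.0364), or 1 of 7 without ND 3. Of 21 chaperones and other genes of endoplasmic reticulum stress, Atf3 was the 1 called, or 1 of 6 without ND 3. None of 17 tested clock genes was called in the 7-library fit, while leaving out ND 2 gave 1 lower and leaving out ND 3 gave 2 higher. Calls ended for Hmox1 without HR 1 or HR 3 (adjusted p 0.0524 to 0.124), for Slc11a1 without HR 3 (adjusted p 0.0618), for Steap3 without 6 of the 7 libraries (adjusted p 0.0533 to 0.199), for Gsta3 without HP 3, HR 1 or HR 3 (adjusted p 0.0527 to 0.162), and for Sod3 and Ube2c without any HP or HR library (adjusted p 0.064 to 0.242).

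By size, the 14 largest rises among well-expressed genes were Gpnmb, Mmp12, Trem2, Atp6v0d2, Gpr50, Saa3, F7, Ubd, Adam8, Rgs1, Il1rn, Tm4sf19, Slc37a2 and Cd300c2, from 5.55 to 3.38. Gpr50, an orphan relative of the melatonin receptors, had 11.6, 1.14 and 36.3 FPKM in the HR libraries, against 0.0388, 0.0224 and 0.311 FPKM in the ND libraries (4.22 ± 0.52, limma adjusted p = 0.009). Ubd, a ubiquitin-like modifier that sends proteins to the proteasome, had 91.1, 16.6 and 126 FPKM in the HR libraries, against 1.43, 8.25 and 4.802 FPKM in the ND libraries (3.88 ± 0.27, limma adjusted p = 0.00178). Rgs1, which shortens chemokine receptor signals, had 17.5, 3.16 and 17.3 FPKM in the HR libraries, against 0.0604, 0.602 and 0.463 FPKM in the ND libraries (3.59 ± 0.18, limma adjusted p = 0.000674). Slc37a2, a sugar phosphate carrier of macrophages, had 28.6, 6.41 and 44.9 FPKM in the HR libraries, against 2.36, 2.42 and 2.61 FPKM in the ND libraries (3.39 ± 0.23, limma adjusted p = 0.00178), and Cd300c2, a myeloid receptor, rose by 3.38 (adjusted p = 0.000674). All 14 were called whichever 1 of the 7 libraries was left out.

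The 14 largest falls were Acsm3, Ccdc73, Nat8f1, Irf4, Mogat1, Ankef1, Cyp2e1, Nrg4, Acaca, B3galt2, Med18, Arl4a, Gsta3 and Pck1, from -2.19 to -1.10. Acsm3, a mitochondrial acyl-CoA synthetase for medium-chain acids, had 6.42, 4.26 and 2.196 FPKM in the HR libraries, against 0.358, 23.2 and 19.3 FPKM in the ND libraries (-2.19 ± 0.38, limma adjusted p = 0.0294). Cyp2e1, a cytochrome P450 that oxidises ethanol and acetone, had 679, 136 and 573 FPKM in the HR libraries, against 102, 1612 and 1492 FPKM in the ND libraries (-1.31 ± 0.26, limma adjusted p = 0.0463). Irf4, an interferon regulatory factor active in fasting fat and in immune cells, had 2.58, 1.03 and 3.02 FPKM in the HR libraries, against 0.679, 7.45 and 12.5 FPKM in the ND libraries (-1.49 ± 0.27, limma adjusted p = 0.0313). In these 3 genes HR 1 and HR 3 lay below ND 2 and ND 3, while ND 1 lay below HR 1 and HR 3. Nat8f1, an acetyltransferase of a family of close copies among which reads may be split, had 1.45, 2.602 and 1.97 FPKM in HR, against 11.8, 5.91 and 7.99 FPKM in ND (-1.55 ± 0.22, limma adjusted p = 0.0148), and Med18, a subunit of Mediator, had 4.73, 3.22 and 2.999 FPKM in HR, against 12.7, 10.4 and 10.6 FPKM in ND (-1.27 ± 0.21, limma adjusted p = 0.0266). Those last 2 were lower in all 3 HR libraries than in all 3 ND libraries. Nat8f1, Med18, Ccdc73 and Arl4a reached their highest value in ND 1, and Ankef1 in HR 2, the libraries rich in spermatid genes. Arl4a had 42.4, 208 and 49.5 FPKM in HR, against 389, 105 and 110.1 FPKM in ND, and the part of those transcripts in the difference of these 5 genes was not tested. Each of the 14 lost its call without HR 3 (adjusted p 0.0805 to 0.269). Nrg4 and Acaca lost it there alone, and the other 12 also without at least 1 other library.

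HR 2 and ND 1 were not used in that fit, and their own values are given here. Relative to the summed adipocyte markers of its library, a ratio chosen after values had been seen, 428 of the 502 higher genes were higher in HR 2 than in ND 1 (85.3%). The same held for 72.9% of all 13054 genes. Of the 38 lower genes, 9 were lower in HR 2 than in ND 1 (23.7%), against 27.0% of all genes. In plain FPKM the shares were 80.9% for the higher genes, against 66.8% of all genes, and 28.9% for the lower genes, against 33.2% of all.

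The same ratio set all 3 HR libraries against all 3 ND libraries. Its divisor includes Cfd, which made up a larger part of the adipocyte sum in ND 1 than in any other HR or ND library. That lowers the ND 1 percentages most. With Cfd taken out of the divisor, ND 1 would lie inside the HR range for the MHC class II and lysosome lists. The lack of overlap given below for those lists therefore depends on Cfd, and for the other sums this was not tested. The summed lipid-associated macrophage markers came to 2.66%, 2.07% and 3.47% of the adipocyte sum in HR, against 0.393%, 0.147% and 0.286% in ND. Macrophage markers came to 5.32%, 8.08% and 7.68% in HR, against 1.53%, 1.69% and 1.94% in ND. The MHC class II list came to 10.6%, 13.5% and 13.4% in HR, against 7.003%, 4.10% and 5.10% in ND. The HR and ND ranges did not overlap in any of these 3 sums, and the exact two-sided permutation p was 0.1 for each, the smallest that 3 against 3 can give. The lysosome list (33.3%, 44.6% and 43.75% in HR, against 25.9%, 13.3% and 18.1% in ND) and the B cell markers (0.8503%, 1.71% and 1.62% in HR, against 0.446%, 0.493% and 0.399% in ND) were also without overlap, at the same p. So were endothelial markers (1.11%, 1.29% and 1.21% in HR, against 0.158%, 0.537% and 0.910% in ND) and the collagen and matrix list (28.3%, 31.03% and 40.86% in HR, against 6.28%, 14.63% and 22.2% in ND). Preadipocyte and fibroblast markers overlapped, at 2.47%, 2.58% and 3.03% in HR, against 0.623%, 2.45% and 2.96% in ND (exact permutation p = 0.4). T cell markers overlapped as well, at 0.0240%, 0.0490% and 0.0304% in HR, against 0.0431%, 0.0184% and 0.0178% in ND (exact permutation p = 0.5). The macrophage list, which is longer than the macrophage markers, came to 9.66%, 18.2% and 13.8% in HR, against 23.35%, 2.73% and 3.49% in ND (exact permutation p = 0.4), and ND 1 held the highest of these values. Of 10 such sums compared, 7 reached an exact permutation p of 0.1, which is 0.143 after Benjamini-Hochberg adjustment over the 10.

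**Figure D5:**
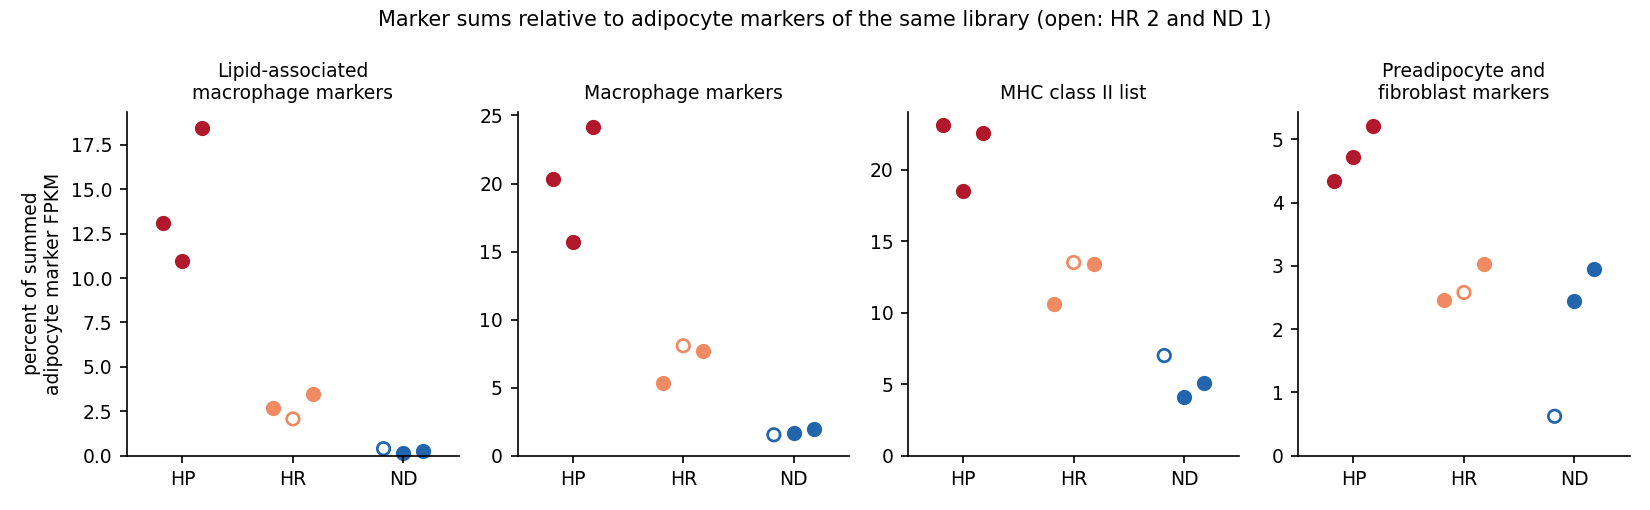
Summed FPKM of 4 gene lists as a percent of the summed adipocyte marker FPKM of the same library, on linear axes from 0, 1 point for each of 9 libraries, with HP at the left, HR in the middle and ND at the right and open points for HR 2 and ND 1. HR points lie above ND points without overlap in the first 3 panels and overlap them in the last. The gap in the MHC class II panel depends on Cfd being part of the adipocyte sum.

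Prone fat stood above resistant fat in macrophage genes in the 7-library fit. HP against HR gave 843 calls of 13054 (6.46%), with 549 genes above HR (4.21%) and 294 below it (2.25%). Those calls depended on the libraries: the count was 0 without HP 1, HP 3, HR 1 or HR 3, 179 without HP 2, 1829 without ND 2, 1922 without ND 3 and 0 in the fit of all 9 libraries, where 679 genes had an unadjusted p under 0.05. The split was 337 higher and 400 lower after quantile normalization, 390 and 213 after scaling each library to 1 common sum, and 379 and 317 after median-ratio scaling. It shares the HR libraries with HR against ND, so the values stand side by side. Trem2 had 338, 232 and 365 FPKM in HP and 98.3, 12.1 and 95.5 FPKM in HR (HP minus HR 1.65, limma adjusted p = 0.0178). In HP, 11 of 17 lipid-associated macrophage genes, 20 of 22 macrophage genes and 14 of 35 lysosomal genes were higher than in HR, and 0 were lower. The medians of the HP minus HR difference for these 3 lists were 1.19, 1.27 and 0.57, and they were above 0 in every alternative fit. Of the MHC class II list, 1 of 8 was higher, and H2-Ab1 had 619, 439.6 and 482 FPKM in HP and 435, 117 and 430.4 FPKM in HR (0.23, limma adjusted p = 0.461). Saa3 differed by 0.30 (95% interval -0.15 to 0.76), Hp by 0.12 (-0.30 to 0.54), and Lep by 0.15 (-0.36 to 0.67). Sfrp5 and Cfb, both higher in HR than in ND, were lower in HP than in HR (-0.92, limma adjusted p = 0.0247 and -0.66, limma adjusted p = 0.0404).

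Adipocyte genes were lower in prone than in resistant fat. In HP, 13 of 31 identity genes were below HR and 0 above it, as were 9 of 23 triglyceride and lipolysis genes and 9 of 32 glucose and insulin genes, with 2 higher in the last list. Their medians were -0.74, -0.56 and -0.54, and below 0 in every alternative fit. Cyp2e1 had 106, 111 and 65.3 FPKM in HP, and HP minus HR was -2.76, limma adjusted p = 0.0163. Pck1 had 266, 246 and 227 FPKM in HP (-1.95, limma adjusted p = 0.0177), and Nrg4 had 12.4, 14.8 and 12.7 FPKM (-1.21, limma adjusted p = 0.0182). Agt, angiotensinogen, had 15.4, 14.8 and 8.31 FPKM in HP and 72.1, 75.9 and 59.7 FPKM in HR (-2.31, limma adjusted p = 0.0177), beside an HR minus ND difference of -0.78 that did not pass. Acaca had 21.8, 27.5 and 26.2 FPKM in HP, and its difference from HR did not pass (-0.33, limma adjusted p = 0.214). Of 25 cell cycle genes, 10 were higher in HP than in HR, Pcna, the sliding clamp of DNA replication, among them (1.03, limma adjusted p = 0.0186).

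The HR minus ND difference in fat was set against that in liver. In a fit over the 7 epididymal fat and 9 liver libraries, the difference between the tissues in HR minus ND passed for 983 of 13730 genes (7.16%), larger in fat for 768 (5.59%) and smaller for 215 (1.57%). Liver itself had 273 called (1.99%), of which 189 were higher (1.38%) and 84 lower (0.612%). The count of 983 was 485 without fat HR 3, 1876 without fat ND 2 and 1989 without fat ND 3. Of the 28 genes with the largest changes, which were picked by the fat difference that is part of this test, 26 passed, the exceptions being Arl4a and Pck1. Gpnmb had 0.0169, 0.067 and 0.0151 FPKM in HR liver, against 0.0569, 0.0498 and 0.0674 FPKM in ND liver. Its HR minus ND difference was 5.58 larger in fat than in liver (limma adjusted p = 6.73e-08). Saa3, which liver makes too, had 3.29, 2.14 and 6.42 FPKM in HR liver, against 1.57, 2.48 and 1.15 FPKM in ND liver (liver HR minus ND 0.79, limma adjusted p = 0.343), and fat exceeded it by 3.34 (adjusted p = 0.00342). Acaca had 5.57, 5.45 and 5.25 FPKM in HR liver, against 6.11, 5.84 and 6.69 FPKM in ND liver, and the fat difference minus the liver difference was -1.14 (adjusted p = 0.00459).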

How the data were processed

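Epididymal fat and liver of 3 groups of mice (3 libraries per group and tissue) were sequenced as poly(A) RNA after TRIzol extraction and TruSeq mRNA library preparation, per the labels' protocols. The authors deposited 1 table of FPKM values for 23474 gene identifiers in all 18 libraries. CASAVA 1.8.2, STAR 2.4.0 and Cufflinks 2.1.1 are named in the submitters' processing notes, while the sources used here give neither their roles and settings nor a build, an annotation or a strand rule. FPKM holds no read totals, so depth and its precision are unknown and no count test was run. Gene symbols came from GENCODE M21 for 22671 identifiers, and 803 stayed unnamed.

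In R 4.3.3, limma 3.58.1 was fitted to log2(FPKM + 1) with a variance trend and 1 coefficient per group, and p-values were adjusted by Benjamini and Hochberg's method over every gene tested (1 FPKM or more in 3 or more of the libraries fitted), at a threshold of 0.05. The fit of 9 epididymal fat libraries was repeated without HR 2 and ND 1, and the tissue difference was fitted over 7 fat and 9 liver libraries. The code was tested on simulated data. Named genes were the 14 largest rises and 14 largest falls with a mean of at least 5 FPKM and no overlap between the 4 HR and ND libraries fitted, up to 6 per list, some fixed by name, and, in the fit of 9 libraries, the 6 of smallest p in each direction. 1 gene that a list count includes is not reported here. A few called genes were added after their values were seen. Alternatives were another pseudocount, no filter, 3 other scalings, HR and ND alone, no trend, library weights, a replicate block and each library left out. The members, lists, rules and alternatives were chosen with earlier results of these data known, and the removal of ND 3 with HP 1, the alternatives of the HP and tissue tests and the adipocyte ratio after these files were seen.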

Additional observations from a re-analysis of the deposited data

Results flagged for a closer look

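The HR minus ND difference was not the same in epididymal fat and liver for 26 of the 28 genes with the largest changes in fat, by a limma test of the difference between the tissues with an adjusted p under 0.05. These genes were picked by the fat difference that is part of the test, so their passing is a description, beside 983 of 13730 over all genes (7.16%). Among macrophage and immune genes the excess in fat, on the log2 scale, was 5.58 for Gpnmb, 4.84 for Mmp12, 4.70 for Trem2, 3.52 for Atp6v0d2, 3.90 for Rgs1, 3.71 for Adam8, 3.51 for Slc37a2, 3.48 for Cd300c2, 3.41 for Tm4sf19, 3.24 for Il1rn and 3.00 for Ubd. It was 4.22 for Gpr50, 3.79 for F7 and 3.34 for Saa3. Among genes lower in HR fat it was -2.52 for Acsm3, -2.11 for Mogat1, -1.73 for Cyp2e1, -1.37 for Nrg4, -1.14 for Acaca, -1.99 for Gsta3, -2.16 for Ccdc73, -2.11 for Nat8f1, -1.41 for Irf4, -1.33 for Ankef1, -1.26 for B3galt2 and -1.34 for Med18.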

How the results depend on the processing

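All 104 called genes that the text names kept their direction under every alternative. Of 2338 values under alternatives, 529 lost the call. Those values cover 138 named genes, including the ones not called in the main fit, which could not lose a call. With all 9 libraries, calls of HR against ND numbered 0 under every setting but library weights (307, of which 297 higher and 10 lower, 295 of them also called with 7 libraries) and leaving out 1 library (0 to 27 calls, 0 to 26 higher, 0 to 1 lower). With 7 libraries they numbered 341 (311 higher) with no filter, 23 (23 higher, 0 lower) with HR and ND alone, 213 (207 higher, 6 lower) with library weights, and 86 to 1307 (85 to 1146 higher, 1 to 238 lower) with 1 library left out. Without a variance trend 25 were lower, and without ND 3 and HP 1 the count was 1479 (1268 higher, 211 lower). HP against HR gave 293 calls with no filter, 2274 with library weights, 1554 without ND 3 and HP 1, and 0 to 1922 with 1 library left out. The difference between fat and liver gave 648 calls with a pseudocount of 0.1 and 485 to 1989 with 1 fat library left out. The cause was not tested.

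Deviations of same-numbered HR and ND libraries correlated at -0.684, -0.843 and 0.361. For HP and ND the values were 0.618, 0.445 and 0.0896, and for HP and HR -0.697, -0.51 and 0.625. The deviations include the HR and ND libraries richest in spermatid genes, which carry different numbers. Whether the numbers pair the libraries therefore cannot be decided from these values. With a replicate block, HR against ND in 7 libraries, where the groups share number 3 alone, gave 76 calls (75 higher, 1 lower), and HP against HR gave 0. With all 9 libraries the block gave 0 calls.

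Rescaling to the same sum moved the median difference of all genes over 9 libraries to 0.403, against 0.135 as deposited, while with 7 libraries it moved to 0.092. Some genes whose difference did not pass changed sign. After quantile normalization the log2 difference was 0.20 for Fabp4, 0.32 for Scd1, -0.065 for Fasn, -0.12 for Lipe and -0.031 for Pparg. Rescaled to the same sum it was 0.014 for Pf4, 0.036 for F3 and 0.077 for Pi16, and with median-ratio scaling -0.000973 for Pparg. Under the block it was 0.12 for Scd1 and -0.041 for Lipe. With ND 3 and HP 1 left out it was 0.15 for Pi16, -0.069 for Fasn, -0.15 for Pparg and -0.11 for Slc2a4. With 1 library left out it ranged from -0.69 to 0.16 for Retnla, -0.33 to 0.19 for Pf4, -0.20 to 0.11 for F3, -0.16 to 0.15 for Pi16, -0.60 to 0.24 for Fabp4, -0.22 to 0.038 for Scd1, -0.12 to 0.19 for Fasn, -0.0030 to 0.084 for Lipe, -1.14 to 3.72 for Krt8, -0.15 to 0.22 for Pparg and -0.11 to 0.67 for Slc2a4, and the HP minus HR difference from -0.051 to 0.29 for Hp and -0.14 to 0.44 for Lep.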
